A study of Mus musculus with 21 samples.

Results

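The genes described here are 10 genes of the TGF-beta pathway and of the fibrotic matrix it acts on, out of 46517 genes in the deposited counts table. They were chosen by name and found by matching the Ensembl identifiers to mouse symbols. They are the ligands *Tgfb1*, *Tgfb2* and *Tgfb3*, the receptors *Tgfbr1* and *Tgfbr2*, the matricellular genes *Postn*, *Thbs1* and *Sparc*, the scaffold gene *Fn1* and the crosslinking gene *Lox*. The study compared hearts of control (Notch3+/+) mice with hearts of Notch3-/- mice, which lack the receptor gene *Notch3* in the whole body through a targeted lacZ insertion. Bulk RNA-sequencing, which reads the RNA of the whole tissue, was done on frozen left ventricle from 4 control and 3 Notch3-/- mice of the strain c57bl/6j at 10 to 14 months of age. The labels name no treatment for either group, and the sex of each mouse is not given in the sources used here. PolyA RNA was reverse transcribed with template switching, amplified by 22 cycles of PCR, fragmented with the Tn5 enzyme and sequenced as single reads of 51 bases, and each mouse gave 3 technical libraries, which makes 21 libraries.

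TGF-beta ligands are secreted in a latent form, which binding proteins store in the matrix until integrins or thrombospondin release the active ligand. The ligand binds the type II receptor, which activates the type I receptor, and Smad proteins then carry the signal to the nucleus. In the heart the pathway is known for driving fibroblasts to deposit matrix after injury, and periostin, fibronectin and lysyl oxidase are among the proteins with which that matrix is built and stiffened.

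The 3 technical libraries of a mouse were summed, so that each mouse was 1 replicate. Control mice 1 to 4 had 3091461, 4638786, 4208205 and 3046326 counts in all, Notch3-/- mice 1 to 3 had 3828763, 5167869 and 5086740, and a single library held 464390 to 2427783. The label of control mice 1 and 2 begins with X, and that of each other mouse with k. The meaning of these letters is not given in the sources used here, and no Notch3-/- mouse has an X label. Any difference between X and k mice therefore enters the comparison of the genotypes over all 7 mice, and the k-labelled mice, 2 control and 3 Notch3-/-, were also fitted alone. Levels are given as CPM, counts scaled to a common library size by TMM normalisation and given per 1e+06 counts, with errors as SD, and differences as log2 fold changes of Notch3-/- over control with their SE. The reads carry no molecular identifiers, so that floors computed from 3 counts cover counting error only.

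The targeted gene *Notch3* was counted 174, 200, 245 and 185 times in the 4 control mice, and 22, 36 and 25 times in the 3 Notch3-/- mice. All 3 Notch3-/- mice lay below all 4 control mice. The level was 54.7 ± 8.62 CPM (SD, n = 4) in control and 6.10 ± 1.42 CPM (SD, n = 3) in Notch3-/- hearts. This was a log2 fold change of -3.16 (SE 0.23, FDR 0.00173 in edgeR with Benjamini-Hochberg adjustment). In whole tissue, fewer cells of a type and less RNA per cell cannot be told apart. With the k-labelled mice alone the value was -3.29, with an edgeR Benjamini-Hochberg FDR of 0.206, and with a hepatocyte score as a covariate it was -3.43, with an FDR of 0.0824. The FDR in every other alternative was lower than 0.05.

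Genes of the liver set Notch3-/- mice 1 and 2 apart from the other 5 mice. A list of 24 hepatocyte genes, all 24 of them detected, summed to 205, 342, 140 and 146 CPM in control mice 1 to 4 and to 9330, 17548 and 319 CPM in Notch3-/- mice 1 to 3. The sums in Notch3-/- mice 1 and 2 lay far above every control mouse, and the sum in Notch3-/- mouse 3 lay within the control range. All 24 genes were nevertheless above their control mean in mouse 3, and for 10 of the 21 tested genes all 3 Notch3-/- mice lay above all control mice (4.57% of all genes did). The most abundant gene of the list over the 7 mice was *Trf*, the transferrin gene, with 132, 144, 102 and 98.2 CPM in control mice and 1420, 1790 and 130 CPM in Notch3-/- mice. *Alb*, the albumin gene, was higher than *Trf* in Notch3-/- mice 1 and 2, with 1705 and 1875 CPM. In control hearts 3 of the 24 genes, *Trf*, *Alb* and *Serpinc1*, averaged more than 10 CPM. At 0 counts were 5, 0, 5 and 7 of the 24 genes in control mice 1 to 4 and 0 in each Notch3-/- mouse, with *Cyp3a11* and *G6pc* at 0 in control mice 1, 3 and 4. Of the 24 genes 21 were tested and all 21 were higher with an unadjusted p lower than 0.05 in edgeR, with a median log2 fold change of 6.90. The score of this list is far higher in Notch3-/- mice 1 and 2 than in the other mice. A fit with it as a covariate therefore rests largely on mouse 3 against the control mice, and is no second check beside the fit of that mouse alone. The values of these fits still differed, with *Fn1* at -0.67 with the score and -0.09 in mouse 3 alone. A list of 7 genes of other liver cells (stellate, sinusoidal and Kupffer cells) was also detected in full, led by *Fcgr2b*, and summed to 37.5, 35, 34.6 and 25.7 CPM in control mice and 96.5, 159 and 40.7 CPM in Notch3-/- mice, with a median of 1.46 over 3 tested genes.

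Of the 10 members 9 passed the edgeR expression filter, and *Tgfb1* did not. EdgeR's quasi-likelihood test called 0 of the 9. A call needed a fold change of 1.5 or more and a Benjamini-Hochberg FDR lower than 0.05, and was met by 1 of 14324 genes tested (0.00698%), which was *Notch3*. With an unadjusted p lower than 0.05, 2 members (*Fn1* and *Postn*) were higher and 0 were lower, against 7.34% of all genes tested that were higher and 3.05% that were lower at that p. Without Notch3-/- mouse 2, or without control mouse 1, 2 or 3, the number of members at that p was 1 (*Fn1*). Over all genes it was 954 to 1338 in these fits, against 1488 with all mice. For 0 members did the mice of the genotypes separate without overlap, where 4.57% of all genes separated with Notch3-/- mice higher and 3.96% with Notch3-/- mice lower. DESeq2, which called 3.37% of the genes it tested, called 0 members. It gave 3 members an unadjusted p lower than 0.05, and 1928 of 17571 genes in all. Limma-voom called 0 members on the 7 mice (1 of 14324 genes called) and on the 21 libraries (54 of 14324). *Fn1* was called in edgeR when every gene with at least 1 count was tested (2.22% of genes called) and when Notch3-/- mouse 3 was left out (6.24% of genes called).

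The fold changes of the 9 tested members ran from -0.28 to 2.38 on the log2 scale, with 6 above 0 and 3 below. Their median was 0.14, beside -0.003 over all genes tested, and it was 0.06 without control mouse 2 and 0.26 without control mouse 3. The median log2 difference of these members from the control mean was 0.13, -0.22, 0.08 and -0.01 in the 4 control mice, and 0.08, 0.33 and 0.03 in the 3 Notch3-/- mice. Notch3-/- mouse 2 alone lay above all control mice on this measure, and the other Notch3-/- mice lay among them. The plot of each member in each mouse shows that *Fn1*, *Postn* and *Thbs1* share the same order of the Notch3-/- mice, with mouse 2 highest and mouse 3 lowest. *Tgfbr1* (27.3, 32.6 and 26.3 CPM in mice 1 to 3) and *Sparc* (311, 334 and 309 CPM) had this order too, with smaller differences. Among the Notch3-/- mice, *Lox*, *Tgfbr2* and the ligands *Tgfb1*, *Tgfb2* and *Tgfb3* were lowest in mouse 1.

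**Figure D1:**
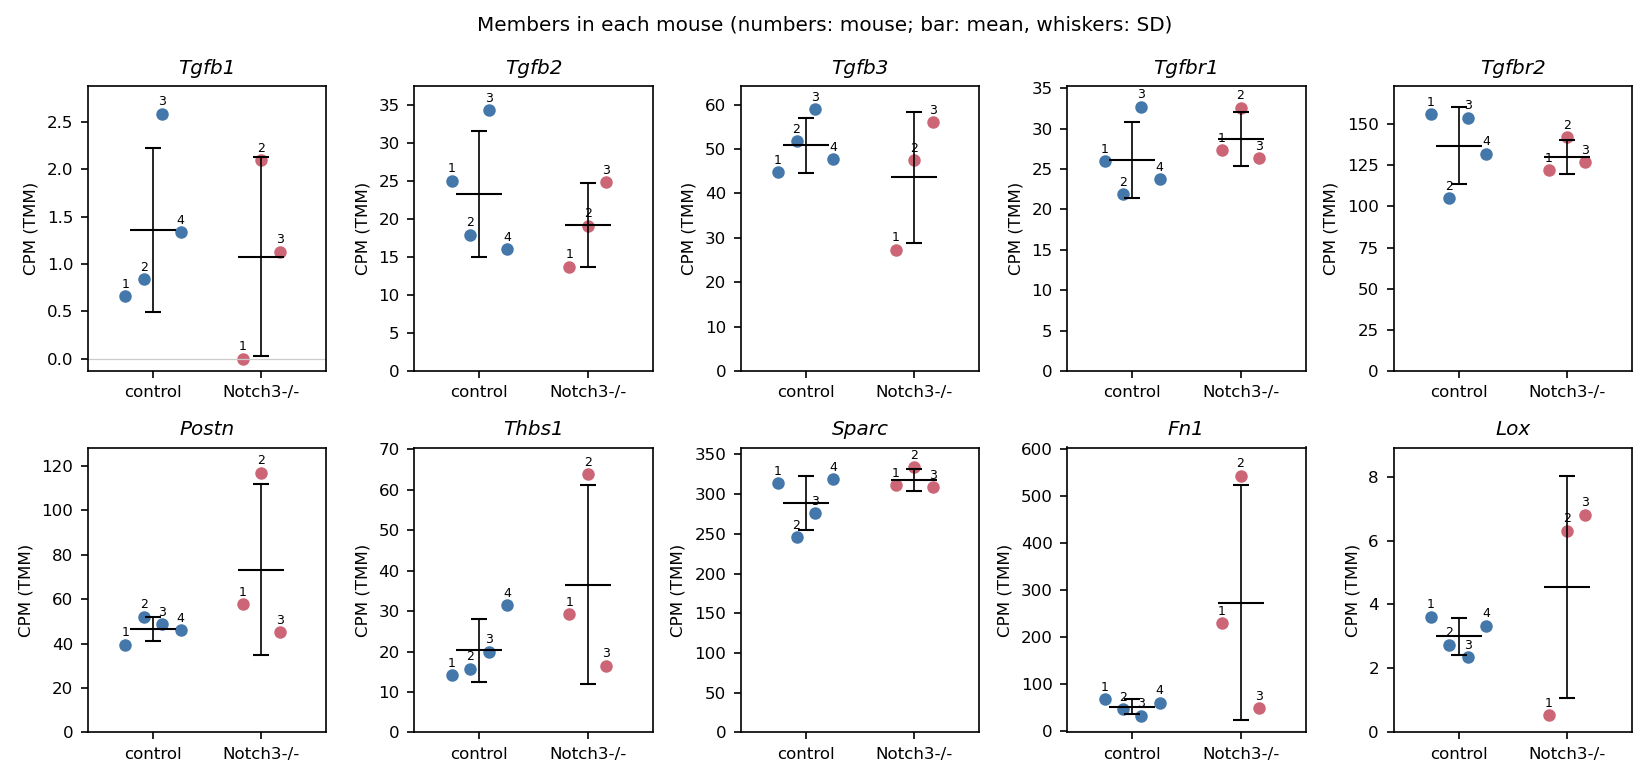
Level of each of the 10 members (CPM after TMM normalisation, vertical axis) in the 4 control mice (blue) and 3 Notch3-/- mice (red), with mouse numbers beside the points, the mean as a bar and the SD as whiskers. *Fn1* reached 230 and 544 CPM in Notch3-/- mice 1 and 2 and 49.0 CPM in mouse 3, within the control range of 33.4 to 68.8 CPM.

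Among the ligands, *Tgfb1* encodes the form best known from fibrosis, and it was close to the detection limit. It was counted 2, 4, 11 and 4 times in the 4 control mice, and 0, 10 and 6 times in the 3 Notch3-/- mice. The genotypes overlapped, and the count of 0 in Notch3-/- mouse 1 allows a level of up to 0.820 CPM, the floor of 3 counts in that mouse. No difference in *Tgfb1* was detectable at this depth. *Tgfb2*, a ligand with a central part in heart valve development, had 25.0, 17.9, 34.3 and 16.0 CPM in control mice and 13.7, 19.1 and 24.8 CPM in Notch3-/- mice. The genotypes overlapped, with the highest value in a control mouse and the lowest in Notch3-/- mouse 1. Its log2 fold change was -0.28 (SE 0.31, edgeR Benjamini-Hochberg FDR 0.799), -0.04 without control mouse 3, and -0.09 and -0.51 without Notch3-/- mice 1 and 3. In technical libraries 1 to 3 of each mouse it was -0.42, -0.89 and 0.19, with an unadjusted p lower than 0.05 in library 2. *Tgfb3*, the ligand with the highest level per kilobase of exon, had 44.8, 51.8, 59 and 47.8 CPM in control mice and 27.3, 47.5 and 56 CPM in Notch3-/- mice. Notch3-/- mouse 1 alone lay below the control mice. On the log2 scale the difference was -0.22 (SE 0.23, edgeR Benjamini-Hochberg FDR 0.787), 0.02 without Notch3-/- mouse 1 and -0.45 without mouse 3. In technical libraries 1 to 3 it was -0.57, -0.19 and 0.07, with such a p in library 1.

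The stretches before the starts of *Tgfb1*, the ligand lowest per kilobase of exon, and of *Tgfb2* are shown because they differ in base composition as well as in level. In the table of RefSeq promoters used here (GRCm38.p6) 6 of the 10 members were matched, *Tgfb1*, *Tgfb2*, *Tgfbr1*, *Tgfbr2*, *Postn* and *Sparc*, and the upstream sequences of *Tgfb3*, *Thbs1*, *Fn1* and *Lox* were not analysed here. The 250 bases before each start were searched on both strands for the core of the Smad binding element, CAGAC, which 42.2% of 32536 promoters of that length held. Capitals mark CAGAC or its complement GTCTG. The *Tgfb1* stretch lies at chr7:25686752-25687001 on the plus strand and the *Tgfb2* stretch at chr1:186705990-186706239 on the minus strand.
Tgfb1: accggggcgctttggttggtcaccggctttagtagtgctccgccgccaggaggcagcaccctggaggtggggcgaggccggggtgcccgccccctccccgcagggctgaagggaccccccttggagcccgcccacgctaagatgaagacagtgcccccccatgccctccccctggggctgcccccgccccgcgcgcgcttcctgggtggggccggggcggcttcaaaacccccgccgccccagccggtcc
Tgfb2: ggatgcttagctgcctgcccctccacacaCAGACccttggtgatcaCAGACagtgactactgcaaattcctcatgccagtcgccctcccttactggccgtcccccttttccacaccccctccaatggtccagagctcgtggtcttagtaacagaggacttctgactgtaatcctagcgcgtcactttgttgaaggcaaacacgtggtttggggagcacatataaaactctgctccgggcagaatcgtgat
The *Tgfb1* stretch was 75.2% G and C and held 0 matches to CAGAC, while the *Tgfb2* stretch was 53.6% G and C and held 2. The *Tgfb1* stretch held 5 matches to the GC box GGGCGG (in 33.0% of promoters), and the *Tgfb2* stretch 1 match each to the TATA box TATAAA (in 12.3%) and to the CCAAT box CCAAT (in 33.8%). None of the 6 stretches held the cAMP response element TGACGTCA (in 1.6% of promoters) or the AP-1 motif TGANTCA (in 6.7%). No motif contains another, and a match describes these letters only. The longest coding transcript of *Tgfb1* was also rich in G and C, with 62.5%, higher than in 98.3% of genes, while the other 9 members had 41.0 to 53.5%.

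The receptors differed little between the genotypes. *Tgfbr1*, the type I receptor that phosphorylates Smad proteins, had 26.0, 21.9, 32.7 and 23.7 CPM in control mice and 27.3, 32.6 and 26.3 CPM in Notch3-/- mice. *Tgfbr2*, the type II receptor that binds the ligand, had 156, 105, 154 and 132 CPM in control mice and 122, 142 and 127 CPM in Notch3-/- mice. For both receptors all 3 Notch3-/- mice lay within the range of the control mice. The log2 fold change was 0.14 (SE 0.19) for *Tgfbr1* and -0.07 (SE 0.16) for *Tgfbr2*, with edgeR Benjamini-Hochberg FDRs of 0.851 and 0.920. For *Tgfbr1* the value was 0.04 without Notch3-/- mouse 2, 0.05 without control mouse 2 and 0.26 without control mouse 3. For *Tgfbr2* it was 0.00 without control mouse 1, -0.18 without control mouse 2, -0.02 without control mouse 3, and -0.02 and -0.13 without Notch3-/- mice 1 and 2. The upstream stretch of *Tgfbr2* held 1 match to CAGAC and that of *Tgfbr1* held 0.

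Matricellular proteins sit in the matrix and act on cells more than they bear load. *Postn* encodes periostin, which activated fibroblasts secrete and which aids collagen fibril assembly. The gene spans 54361109 to 54391037 of chromosome 3, plus strand (GENCODE vM21, GRCm38). It had 39.5, 52.1, 48.9 and 46.1 CPM in control mice and 57.7, 117 and 45.2 CPM in Notch3-/- mice. Notch3-/- mice 1 and 2 lay above all control mice, and mouse 3 lay among them. The mean was 46.6 ± 5.34 CPM (SD, n = 4) in control and 73.4 ± 38.6 CPM (SD, n = 3) in Notch3-/- hearts. This was a log2 fold change of 0.65 (SE 0.29, edgeR Benjamini-Hochberg FDR 0.479). This value rested on Notch3-/- mouse 2, without which it was 0.13. Against the control mean *Postn* was 1.24-fold in Notch3-/- mouse 1, 2.52-fold in mouse 2 and 0.969-fold in mouse 3, whose sums over the hepatocyte list were 44.8, 84.3 and 1.53 times the control mean. In Notch3-/- mouse 3 alone against the 4 control mice the log2 difference was -0.05, and with the hepatocyte score as a covariate it was -0.31.

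*Thbs1* encodes thrombospondin-1, a platelet and stromal glycoprotein that can release latent TGF-beta. It had 14.2, 15.8, 20.0 and 31.4 CPM in control mice and 29.2, 63.9 and 16.5 CPM in Notch3-/- mice. Notch3-/- mouse 2 alone lay above all control mice, and mouse 1 lay just under control mouse 4. This gave a log2 fold change of 0.85 (SE 0.43, edgeR Benjamini-Hochberg FDR 0.525), and 0.16 without Notch3-/- mouse 2. In Notch3-/- mouse 3 alone the difference from the control mice was -0.30, and with the hepatocyte score it was -0.52. A list of 5 platelet and megakaryocyte genes, all detected and led by *Pf4*, summed to 42.8, 28.5, 27.3 and 40.4 CPM in control mice and 21, 24.8 and 28 CPM in Notch3-/- mice. Of its genes *Gp9* was at 0 in Notch3-/- mouse 1. Notch3-/- mice 1 and 2 lay below all control mice on this sum and mouse 3 lay within their range. The part of platelets in *Thbs1* was not tested. Over the 3 tested genes of the platelet list the median was -1.05 on the log2 scale, with 0 higher and 1 lower at an unadjusted p lower than 0.05.

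*Sparc* encodes osteonectin, which binds collagen and calcium and is needed for collagen to mature in the heart. It had 314, 246, 276 and 319 CPM in control mice and 311, 334 and 309 CPM in Notch3-/- mice. The Notch3-/- mice lay close together at the upper end of the control range, and mouse 2 passed it. Its log2 fold change was 0.14 (SE 0.12, edgeR Benjamini-Hochberg FDR 0.732), and 0.06 without control mouse 2, the lowest mouse. The smallest SE among the members was that of *Sparc*.

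The stretches before the starts of *Postn* and *Sparc* are shown because these are the matricellular members matched in the promoter table and they varied differently, *Postn* with 1 Notch3-/- mouse far above the rest and *Sparc* nearly level in all 7 mice. They come from RefSeq (GRCm38.p6), at chr3:54360857-54361106 on the plus strand for *Postn* and chr11:55420081-55420330 on the minus strand for *Sparc*, with capitals as above. The RefSeq start of *Sparc* lies 3103 bases from the GENCODE start of the gene, and that of *Postn* 2 bases from it.
Postn: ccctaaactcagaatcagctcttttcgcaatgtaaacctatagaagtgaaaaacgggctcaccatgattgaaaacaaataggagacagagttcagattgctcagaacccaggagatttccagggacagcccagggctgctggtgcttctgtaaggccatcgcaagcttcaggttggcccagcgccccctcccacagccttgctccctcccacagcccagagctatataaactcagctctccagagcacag
Sparc: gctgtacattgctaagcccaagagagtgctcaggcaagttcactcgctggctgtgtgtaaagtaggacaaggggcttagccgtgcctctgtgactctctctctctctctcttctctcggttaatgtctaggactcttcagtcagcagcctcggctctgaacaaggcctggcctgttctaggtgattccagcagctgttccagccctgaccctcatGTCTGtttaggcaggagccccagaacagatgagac
The *Postn* stretch held 0 matches to CAGAC and 1 to TATAAA, and the *Sparc* stretch held 1 match to CAGAC, printed as GTCTG, and 0 to TATAAA. Neither held GGGCGG or CCAAT.

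*Fn1* encodes fibronectin, the scaffold on which collagen and latent TGF-beta are laid down, and liver cells also release it into the plasma. The gene spans 71585520 to 71653200 of chromosome 1, minus strand (GENCODE vM21, GRCm38). It had 68.8, 47.4, 33.4 and 61.1 CPM in control mice and 230, 544 and 49.0 CPM in Notch3-/- mice. Notch3-/- mice 1 and 2 lay far above every control mouse, and mouse 3 lay in the middle of the control range. The mean was 52.7 ± 15.6 CPM (SD, n = 4) in control and 274 ± 250 CPM (SD, n = 3) in Notch3-/- hearts. The log2 fold change was 2.38 (SE 0.61), the largest among the 9 tested members, and it did not pass the test (edgeR Benjamini-Hochberg FDR 0.195, higher than the control mean in 2 of 3 Notch3-/- mice). Over the alternatives this FDR ran from 0.000406 to 0.999. The lowest came without Notch3-/- mouse 3, where *Fn1* was called with a log2 fold change of 2.88, and with every gene of at least 1 count it was called at an edgeR Benjamini-Hochberg FDR of 0.0124. Without Notch3-/- mouse 2 the value was 1.40, and among k-labelled mice only it was 2.53 (FDR 0.734 in edgeR with Benjamini-Hochberg adjustment).

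*Fn1* and the hepatocyte list had the same order over the Notch3-/- mice. *Fn1* was 4.37-fold the control mean in Notch3-/- mouse 1, 10.3-fold in mouse 2 and 0.930-fold in mouse 3, in the order of their hepatocyte sums of 9330, 17548 and 319 CPM. Above the control mean, *Fn1* had 177 CPM in mouse 1 and 491 CPM in mouse 2. This excess was larger in the mouse with more hepatocyte CPM, but not in proportion to the summed list. The genes of the list were not in 1 proportion either. In mice 1 and 2 they ran from 1705 and 1875 CPM for *Alb* to 28.7 and 641 CPM for *Cyp3a11*. The part of liver RNA in *Fn1* was not tested. In Notch3-/- mouse 3 alone the log2 difference from the 4 control mice was -0.09, and with the hepatocyte score as a covariate in all 7 mice the log2 fold change was -0.67. The order also held within the technical libraries. The 3 libraries of Notch3-/- mouse 2 had 481, 508 and 617 CPM of *Fn1* and those of mouse 1 had 219, 190 and 297 CPM, above all 12 control libraries, which had 31.6 to 83.5 CPM. The libraries of Notch3-/- mouse 3 had 36.2, 84.8 and 35.9 CPM, of which 84.8 CPM lay just above the highest control library. The plot of members against the hepatocyte list shows that for *Postn* and *Thbs1* the libraries of mouse 2 lay above all control libraries, and those of mouse 1 overlapped them.

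**Figure D2:**
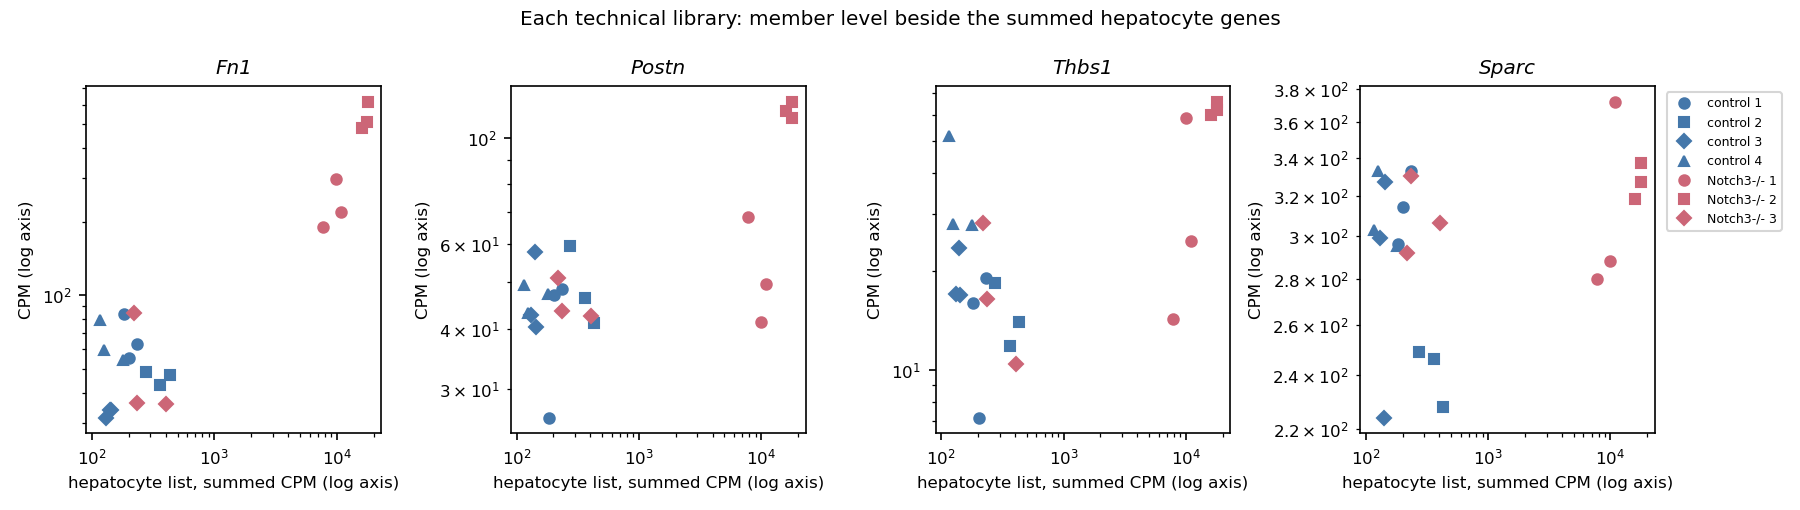
CPM of *Fn1*, *Postn*, *Thbs1* and *Sparc* (vertical log axes) against the summed CPM of the 24 hepatocyte genes (horizontal log axes) in each of the 21 technical libraries, with control libraries in blue, Notch3-/- libraries in red and a symbol for each mouse. The 3 libraries of Notch3-/- mouse 2 (15953 to 17884 hepatocyte CPM) lie at the top for *Fn1*, *Postn* and *Thbs1*, and for *Sparc* the control and Notch3-/- libraries overlap.

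*Lox* encodes lysyl oxidase, the enzyme that crosslinks collagen and elastin. It had few reads, with 11, 13, 10 and 10 counts in the 4 control mice, and 2, 30 and 36 counts in the 3 Notch3-/- mice. Its level was 3.62, 2.74, 2.35 and 3.34 CPM in control mice and 0.547, 6.31 and 6.81 CPM in Notch3-/- mice. The control mice lay close together, Notch3-/- mice 2 and 3 lay above all of them and mouse 1 below, so that the Notch3-/- mice fell on both sides. The 2 counts of mouse 1 all came from 1 of its 3 libraries. The log2 fold change was 0.64 (SE 0.61, edgeR Benjamini-Hochberg FDR 0.757). It was 1.13 without Notch3-/- mouse 1, 0.37 without mouse 2 and 0.24 without mouse 3. In Notch3-/- mouse 3 alone the log2 difference from the control mice was 1.19. Its order over the Notch3-/- mice differed from that of the hepatocyte list, since mouse 3, with a sum of 319 hepatocyte CPM, had the highest *Lox* level.

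In the k-labelled mice alone, the log2 fold change was -0.40 for *Tgfb2*, -0.30 for *Tgfb3*, 0.02 for *Tgfbr1*, -0.14 for *Tgfbr2*, 0.62 for *Postn*, 0.51 for *Thbs1*, 0.09 for *Sparc* and 0.71 for *Lox*. Each tested member thus kept its sign there, and edgeR called 0 of them with 1 (*Fn1*) at an unadjusted p lower than 0.05, where it called 0 of 14872 genes in all, with 949 at that p. The plot of the fits shows each member across the alternatives. *Tgfbr1*, *Sparc* and *Lox* were above 0 in every fit that tested them, *Fn1*, *Postn* and *Thbs1* were above 0 in all but the fits with the hepatocyte score and with Notch3-/- mouse 3 alone, and *Tgfb2* and *Tgfb3* had the opposite sign in those and in technical library 3, *Tgfb3* also without Notch3-/- mouse 1. *Tgfbr2* had the opposite sign in technical library 2.

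**Figure D3:**
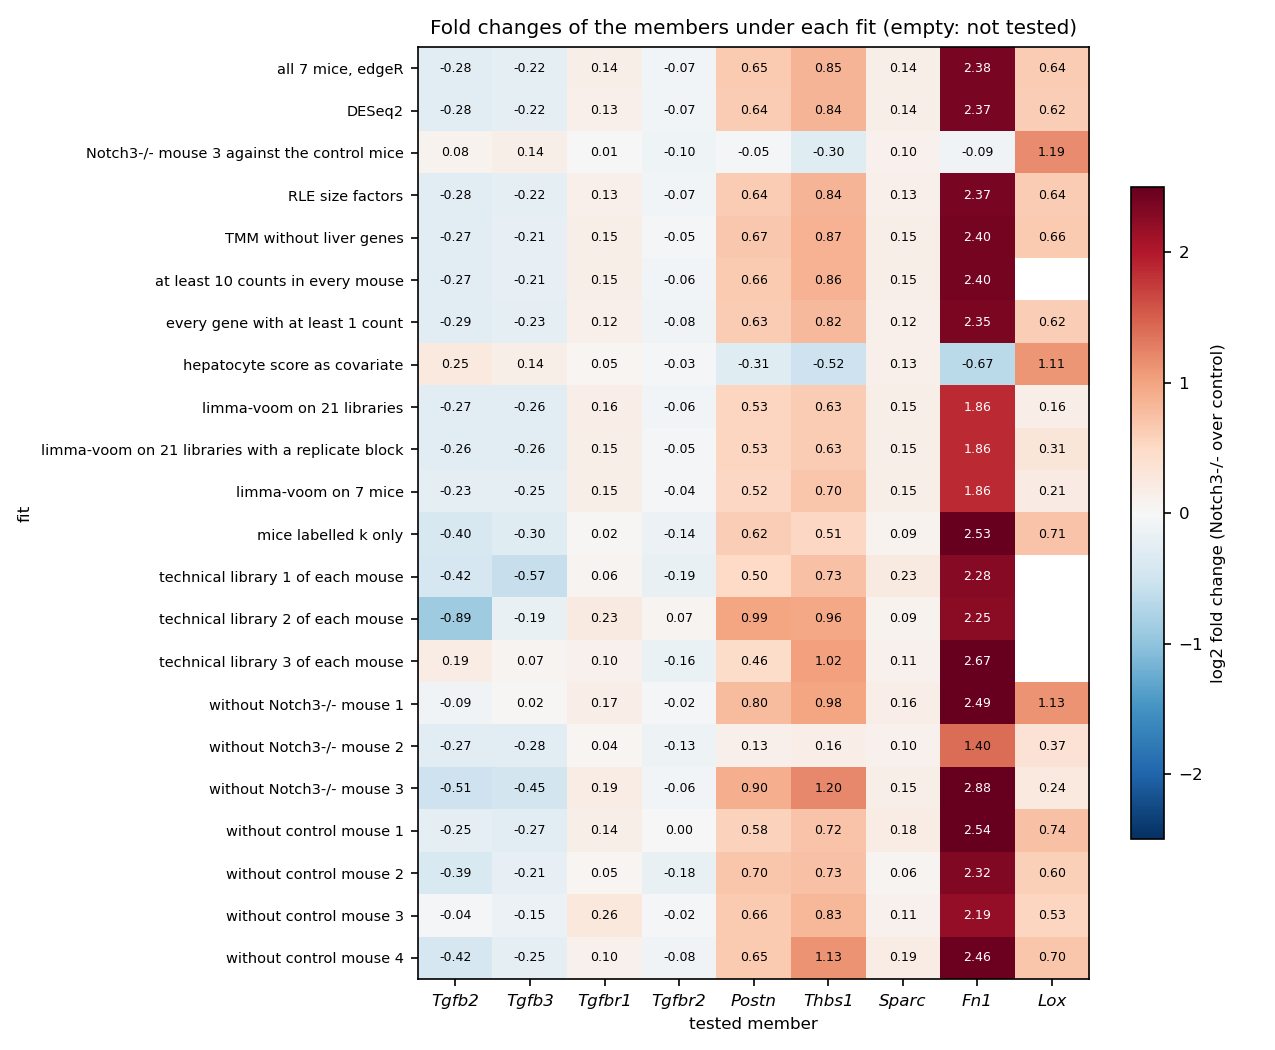
Log2 fold changes (Notch3-/- over control, colour and printed value) of the 9 tested members (columns) in each fit (lines), with empty fields where a gene was not tested. *Fn1* ran from -0.67 with the hepatocyte score to 2.88 without Notch3-/- mouse 3, and *Sparc* from 0.06 to 0.23.

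Antisense or opposite-strand genes share exon bases with some members, and the use of strand in counting is not given in the sources used here. Reads of such pairs cannot be told apart without strand. *Tgfb2* shares 124 bases with *Gm29491*, *Tgfb3* 163 with *Gm37804* and 257 with *Gm48008*, *Thbs1* 208 with *Gm29233*, *Fn1* 292 with *Apol7d* and *Lox* 30 with AC161119.1. *Notch3* shares 488 with *Gm17276*.

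Levels of different genes were compared as CPM per kilobase of exon, over all 7 mice. *Sparc* was highest with a mean of 79.6 ± 7.94 (SD), followed by *Tgfbr2* with 16.3 ± 2.20, *Tgfb3* with 14.1 ± 3.05 and *Fn1* with 12.6 ± 16.0. *Postn* with 6.68 ± 3.07, *Thbs1* with 4.49 ± 2.88, *Tgfbr1* with 4.17 ± 0.630 and *Tgfb2* with 3.72 ± 1.22 came next. *Lox* with 0.769 ± 0.462 and *Tgfb1* with 0.245 ± 0.174 were lowest. Of the 9 pairs of neighbours in this order only 2, *Sparc* with *Tgfbr2* and *Tgfb2* with *Lox*, had ranges over the mice that did not overlap. This order depends on the length used. Per kilobase of the longest coding transcript, a length chosen after seeing the data, *Sparc* was still highest (131 ± 13.1, SD over 7 mice) and *Tgfb1* lowest (0.569 ± 0.403), but *Postn* was at 18.1 ± 8.34, above *Fn1* with 17.8 ± 22.5 and *Tgfbr2* with 16.5 ± 2.23, and *Tgfbr1* came before *Thbs1*. Per kilobase of exon the level of *Sparc* was 324 times that of *Tgfb1*. The place of *Fn1* rested on the Notch3-/- mice, since its control mean was 4.51 ± 1.34 (SD, n = 4), lower than the 5.36 ± 0.614 (SD, n = 4) of *Postn*. Among the ligands, the control means were 15.0 ± 1.83 for *Tgfb3*, 4.03 ± 1.43 for *Tgfb2* and 0.269 ± 0.172 for *Tgfb1* (SD, n = 4).

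**Figure D4:**
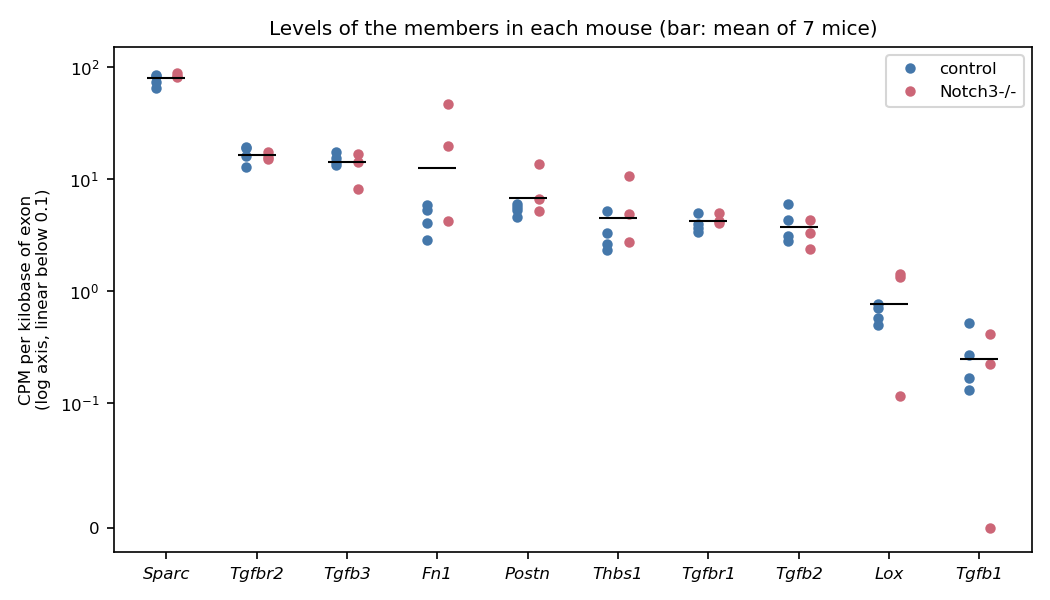
Level of each member as CPM per kilobase of exon (vertical axis, log scale, linear under 0.1) in control (blue) and Notch3-/- (red) mice, with the mean of 7 mice as a bar. *Sparc* (64.9 to 88.3) stands apart from *Tgfbr2* (12.8 to 19.0), and *Fn1* spreads over 2.86 to 46.5.

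The spread between technical libraries sets how finely a member could be measured. The SD of log2 CPM between the 3 libraries of a mouse had a median of 0.35 over the members, from 0.15 for *Sparc* to 0.60 for *Tgfb1*. Between mice of 1 genotype, each a sum of 3 libraries, the SD was 0.14 for *Sparc*, 0.22 for *Tgfbr1* and *Tgfbr2*, 1.16 for *Fn1* and 1.03 for *Lox*. A sum varies less than a single library does, so these values are not set against the spread between libraries. Among the 3 Notch3-/- mice the SD was 1.75 for *Fn1*, 1.60 for *Lox*, 0.97 for *Thbs1* and 0.71 for *Postn*, while among the 4 control mice it was 0.46, 0.24, 0.50 and 0.17. These members thus varied more within the Notch3-/- group than within the control group, as did *Tgfb3* (0.54 against 0.17) and *Tgfb1* (1.24 against 0.63). The other members, *Tgfb2* (0.42 against 0.49), *Tgfbr1* (0.16 against 0.25), *Tgfbr2* (0.11 against 0.26) and *Sparc* (0.06 against 0.18), varied less. The highest count per exon base in a library was 0.218, for *Sparc* in a library of Notch3-/- mouse 3 (0.155 without that mouse).

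The genes most like *Fn1* and *Lox*, the 2 members with the largest SD over the 7 mice, were sought among 14323 genes by the root mean square difference of centred log2 CPM. For *Fn1* they were *B4galnt1* (0.22), *Vtn* (0.26) and *Khk* (0.27). *Vtn*, the vitronectin gene, had 174, 261, 228 and 209 counts in the 4 control mice, and 1079, 3314 and 287 counts in the 3 Notch3-/- mice. For *Lox* they were *Zfp937* (0.32), *Snhg11* (0.38) and *Map4k1* (0.38). *Snhg11* had 80, 93, 62 and 67 counts in the 4 control mice, and 28, 117 and 144 counts in the 3 Notch3-/- mice. The 3 genes named for *Fn1* had their highest count in Notch3-/- mouse 2, and the 3 named for *Lox* their lowest in Notch3-/- mouse 1. Since the genes were chosen for likeness over the same 7 mice, this follows from the choice and is no separate result.

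A wider list of 60 genes of the pathway covered storage, receptors, Smad proteins, inhibitors, induced genes, other matricellular genes, crosslinking enzymes and proteoglycans. Of the 60 genes 59 were tested and edgeR called 0. With an unadjusted p lower than 0.05, 7 were higher (11.9%, against 7.34% of all genes tested) and 3 were lower (5.08%, against 3.05%), and the median log2 fold change was 0.19. Without control mouse 2 the number at that p was 5 (1338 of 14109 genes in all), in place of 10 (1488 of 14324). The mice separated without overlap for 8 genes, 5 higher (8.47%, against 4.57% of all genes, which were *Ltbp2*, *Nrros*, *Col1a1*, *Col3a1* and *Bgn*, of which *Bgn* is named for this count alone) and 3 lower (5.08%, against 3.96%, which were *Thbs2*, *Thbs4* and *Dcn*). DESeq2 called 5 genes (8.33%, against 3.37% of all genes, which were *Col3a1*, *Spp1*, *Col1a1*, *Ltbp2* and *Thbs2*). Limma-voom called 0 on the 7 mice and 1 (*Col3a1*) on the 21 libraries (1.69%, against 0.377%), and edgeR without Notch3-/- mouse 3 called 1 (*Smoc1*, 1.69% against 6.24%). *Spp1*, the osteopontin gene, named for its DESeq2 call, did not pass the edgeR expression filter, with 3, 3, 4 and 6 counts in the 4 control mice, and 7, 97 and 10 counts in the 3 Notch3-/- mice.

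The list for storage and activation of the ligand holds *Ltbp2*, placed there by its family, the latent TGF-beta binding proteins. Whether its own product binds the ligand was not tested. *Ltbp2* had 6, 8, 6 and 5 counts in the 4 control mice, and 15, 27 and 49 counts in the 3 Notch3-/- mice. All 3 Notch3-/- mice lay above all control mice, and mouse 3 was highest. This gave a log2 fold change of 1.92 (SE 0.39, edgeR Benjamini-Hochberg FDR 0.126), and the FDR over the alternatives ran from 0.0362 in DESeq2 to 0.999. *Nrros*, which holds latent TGF-beta on macrophages and microglia, had a log2 fold change of 0.51 (SE 0.22, and -0.10 in technical library 3), with 13.3 to 21.1 CPM in control mice and 21.6 to 27.9 CPM in Notch3-/- mice. The gene of this role with the highest CPM, *Ltbp4*, had a log2 fold change of -0.08 (SE 0.13), and 0.01 without Notch3-/- mouse 3. None of the 4 other receptors and co-receptors, 3 Smad genes or 9 inhibitors had an unadjusted p lower than 0.05, and their median log2 fold changes were -0.04, 0.13 and 0.17. In these roles the genes with the highest CPM were *Eng* (0.06), *Smad3* (0.03) and *Ski* (-0.01). *Eng* was -0.02 without control mouse 2 and -0.01 without control mouse 3. *Smad3* was -0.15 without Notch3-/- mouse 2, -0.03 without control mouse 2 and -0.06 without control mouse 4. *Ski*, an inhibitor of Smad proteins, was 0.07 and 0.15 without Notch3-/- mice 2 and 3, and 0.04 and 0.01 without control mice 1 and 4.

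The fibrillar collagens, which the pathway induces, showed another order of mice than *Fn1*. *Col3a1* had 295, 206, 248 and 284 CPM in control mice and 360, 453 and 526 CPM in Notch3-/- mice, with no overlap and mouse 3 highest. Its log2 fold change was 0.79 (SE 0.16, edgeR Benjamini-Hochberg FDR 0.126, higher in 3 of 3 Notch3-/- mice), with FDRs of 0.00116 in DESeq2 and 0.0121 in edgeR with every gene, and 0.999 at most over the alternatives. For *Col1a1* it was 0.62 (SE 0.16) and for *Col1a2* 0.41 (SE 0.17), which was 0.23 without Notch3-/- mouse 3 and 0.02 in technical library 1 of each mouse. In that library *Col1a1* had 0.23 and *Col3a1* 0.45. *Col1a1* had 167, 126, 127 and 127 CPM in control mice and 178, 203 and 248 CPM in Notch3-/- mice. *Col3a1* and *Ltbp2* were 2.04-fold and 5.5-fold the control mean in Notch3-/- mouse 3, where the hepatocyte sum was 1.53 times the control mean. Of the 8 induced genes 6 had a log2 fold change above 0 and 2 below, with a median of 0.37.

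Among the other matricellular genes, *Smoc1*, a relative of *Sparc*, had 13.8, 4.21, 5.41 and 3.67 CPM in control mice and 21.9, 83.5 and 0.946 CPM in Notch3-/- mice. Notch3-/- mice 1 and 2 lay above the control mice and mouse 3 lay below them. Its log2 fold change was 2.41 (SE 0.97, edgeR Benjamini-Hochberg FDR 0.436), 0.72 without Notch3-/- mouse 2 and 2.99 without mouse 3, where it was called (FDR 0.0101 in edgeR with Benjamini-Hochberg adjustment, and up to 0.999 in other fits). With the hepatocyte score it was -3.53 and in Notch3-/- mouse 3 alone -2.78. *Thbs2*, a thrombospondin that limits vessel growth, had 136, 114, 88.0 and 118 CPM in control mice and 65.0, 77.0 and 79.0 CPM in Notch3-/- mice. All 3 Notch3-/- mice lay below all control mice. The log2 fold change was -0.63 for *Thbs2* (SE 0.17, edgeR Benjamini-Hochberg FDR 0.212, and 0.0231 to 0.999 over the alternatives) and -0.69 for *Thbs4* (SE 0.30). For *Thbs2* it was -0.21, -0.47 and -1.18 in technical libraries 1 to 3, and for *Thbs4* -0.37 both in technical library 1 and in the k-labelled mice. *Sparcl1*, with the highest CPM of this role, had -0.10 (SE 0.11).

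Of the crosslinking and maturation genes, *Bmp1*, whose product trims procollagen and activates lysyl oxidase, had 46.1, 48.5, 39.8 and 54.8 CPM in control mice and 63.4, 92.3 and 48.6 CPM in Notch3-/- mice. Mouse 3 again lay among the control mice. Its log2 fold change was 0.53 (SE 0.22), 0.24 without Notch3-/- mouse 2, 1.07 in technical library 1 and 0.04 in Notch3-/- mouse 3 alone, and the part of liver RNA in it was not tested. *Plod1*, with the highest CPM of this role, had 0.23 (SE 0.14). The proteoglycan *Dcn*, which binds TGF-beta, had 582, 508, 494 and 456 CPM in control mice and 431, 395 and 452 CPM in Notch3-/- mice, just without overlap, and a log2 fold change of -0.26 (SE 0.11, edgeR Benjamini-Hochberg FDR 0.476), which was -0.16 in the k-labelled mice and -0.08 in technical library 1. *Serpinh1* and *Fmod*, named after their values were seen, were low in the X-labelled mice. *Serpinh1*, a collagen chaperone, had 56.6 and 80.7 CPM in control mice 1 and 2, 262 and 295 CPM in control mice 3 and 4, and 294, 252 and 260 CPM in Notch3-/- mice. *Fmod* had 1, 3, 39 and 18 counts in the 4 control mice, and 33, 28 and 134 counts in the 3 Notch3-/- mice. For both genes the k-labelled control mice overlapped the Notch3-/- mice, so that within the control group the low values went with the X label.

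**Figure D5:**
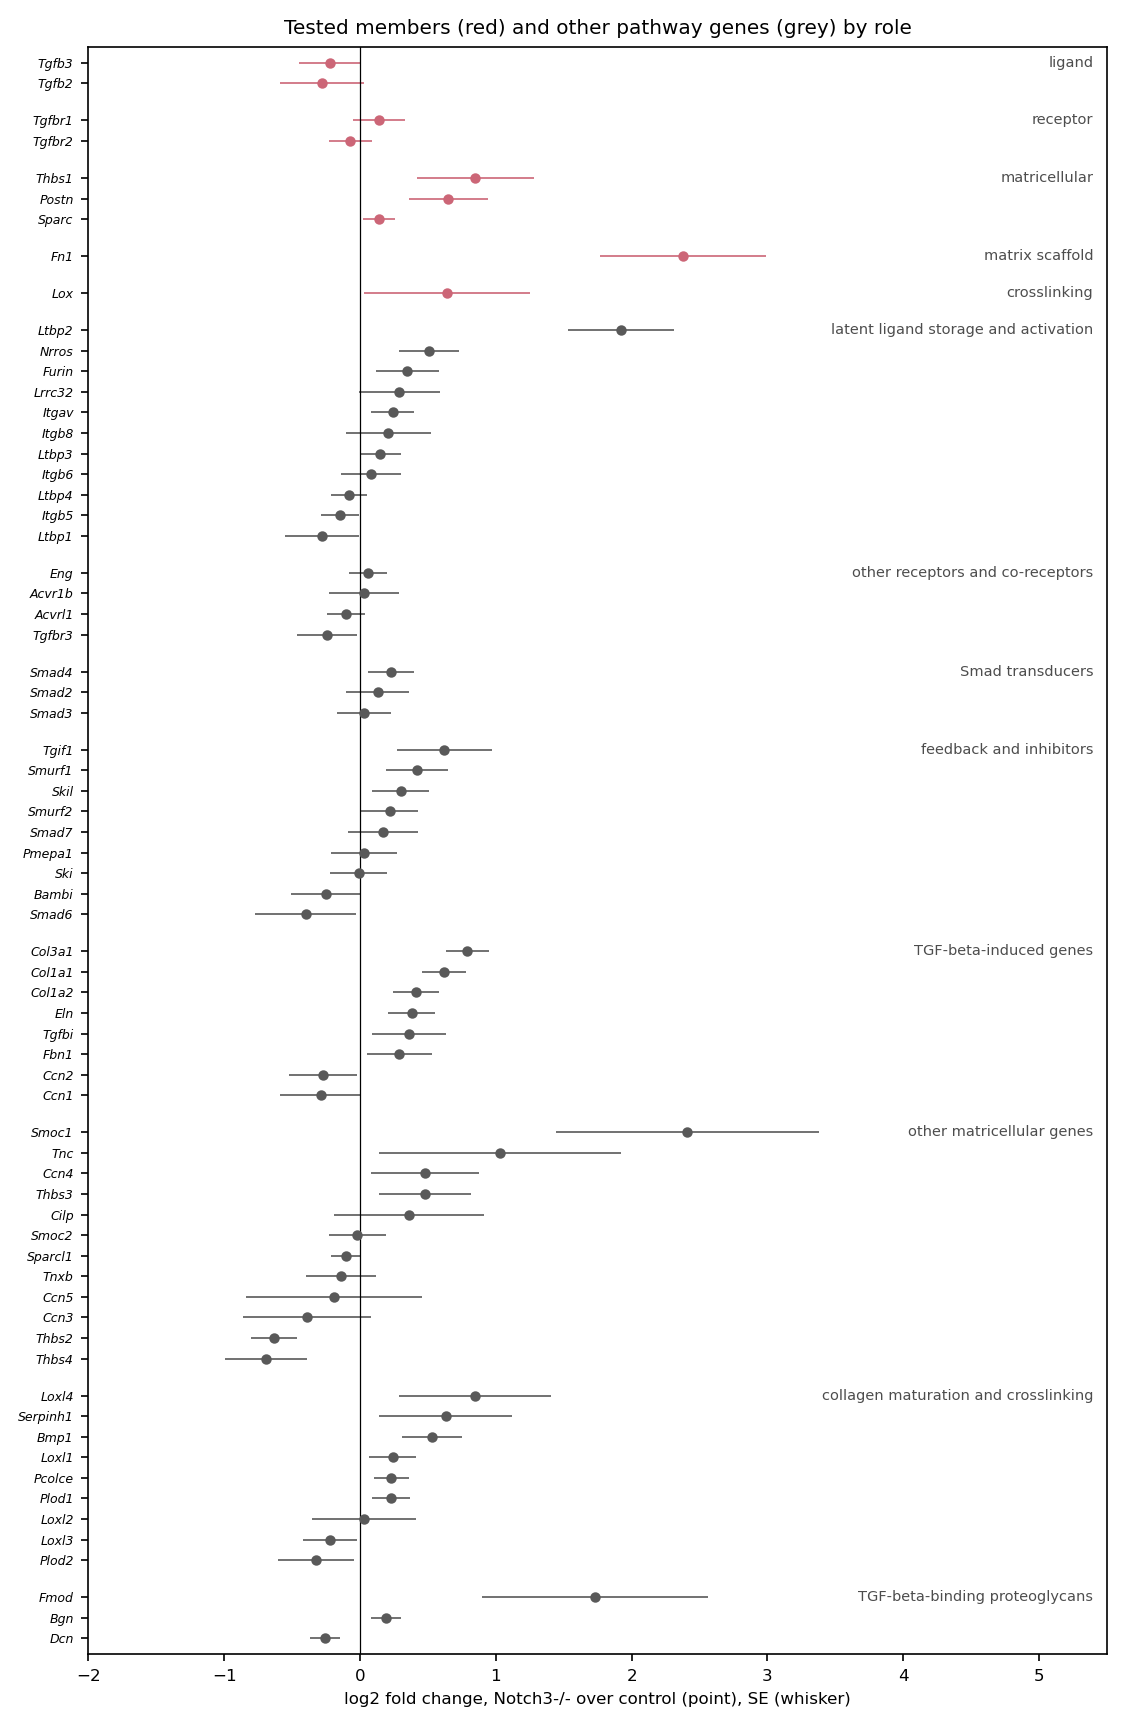
Log2 fold changes (horizontal axis, Notch3-/- over control) with SE as whiskers for the 9 tested members (red) and the 59 tested genes of the wider pathway list (grey), grouped by role. *Fn1* (2.38), *Smoc1* (2.41) and *Ltbp2* (1.92) lie farthest to the right, and 0 of these genes were called.

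Markers of the cells that make or receive these proteins were read from lists. The 8 cardiomyocyte genes, led by *Ttn*, summed to 20475 to 28430 CPM in control mice and 18497 to 28352 CPM in Notch3-/- mice, and their median log2 fold change was -0.24. The 8 fibroblast genes, led by *Gsn*, summed to 1749 to 2212 CPM in control mice and 1655 to 2020 CPM in Notch3-/- mice, with a median of -0.03. For the 6 genes of activated fibroblasts, led by *Col8a1*, the sums were 94.8, 103, 112 and 99.9 CPM in control mice and 126, 229 and 110 CPM in Notch3-/- mice, with a median of 0.53 over 5 tested genes, 2 of them (*Ddah1* and *Meox1*, named for this count) higher at an unadjusted p lower than 0.05. Notch3-/- mouse 2, the mouse with the most *Postn*, was highest on this list too, and the part of these cells in *Postn* was not tested. The largest part of the difference of mouse 2 from the control mean came from *Ddah1*, with 39.9, 87.7 and 17.4 CPM in Notch3-/- mice 1 to 3 and a control mean of 21.1 CPM. *Meox1* had 34.2, 45.9 and 28.9 CPM in these mice, above all control mice (22.7 to 26.6 CPM). Both genes followed the order of the hepatocyte sums, as did *Comp* with 6.56, 23.3 and 5.11 CPM in Notch3-/- mice 1 to 3. *Col8a1*, with 36.1, 64.4 and 48.8 CPM, and *Fap*, with 9.29, 7.15 and 9.83 CPM, did not. *Comp* and *Fap* were named after their values were seen. *Cthrc1*, a defining marker of these cells, had 0, 0, 2 and 1 counts in the 4 control mice, and 1, 2 and 1 counts in the 3 Notch3-/- mice.

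The median log2 fold change was 0.18 for endothelial genes, 0.23 for macrophage genes, -0.22 for vascular smooth muscle genes and -0.17 for the pericyte list, which holds *Notch3* and *Vtn*. With an unadjusted p lower than 0.05, *Myh11* (-2.49, SE 0.45), *Tagln* (-0.93, SE 0.35) and, on the pericyte list, *Rgs5* (-0.34, SE 0.10) were lower, all named after their values were seen. *Myh11* had 10.6 to 39.8 CPM in control mice and 3.28 to 5.05 CPM in Notch3-/- mice, without overlap, as for *Rgs5*, and edgeR called none of these 3 genes. Of all genes tested, 3.05% were lower and 7.34% higher at that p. Other genes of these lists went the other way. *Acta2* (0.15, SE 0.53) and *Mylk* (0.24, SE 0.38) were above 0, and *Vtn* (2.57, SE 0.61) was higher at that p. On the pericyte list *Vtn* was the only gene above 0, with 5 below. It had 295, 697 and 54.3 CPM in Notch3-/- mice 1 to 3 and 53.6 to 69.8 CPM in control mice. Its Notch3-/- mice had the order of the hepatocyte sums, and the part of liver RNA in *Vtn* was not tested. The median was 1.02 over 2 tested genes of valve and tendon-like cells, which include *Fmod*, 0.83 for mesothelial genes, -0.52 for erythroid genes and 0.28 for immediate early genes. The mesothelial genes summed to 10.5 and 14.5 CPM in the X-labelled control mice, 50.8 and 54.8 CPM in the other control mice and 36.6, 34.9 and 102 CPM in Notch3-/- mice. The adipocyte genes summed to at most 20.8 CPM, in Notch3-/- mouse 2, and none was tested. Of the sex-linked genes, which had a median of -0.02, *Xist* had 1128 counts in control mouse 2 and 1729 in Notch3-/- mouse 1 and at most 25 in the other 5 mice. The Y-linked gene *Ddx3y*, named after its values were seen, had 4 and 1 counts in control mouse 2 and Notch3-/- mouse 1. It had 288 to 705 counts in the other 5 mice, so that both genotypes held mice of either pattern. Notch3-/- mouse 1 was also the lowest of the 7 mice for *Tgfb2*, *Tgfb3* and *Lox*. Control mouse 2 had 17.9, 51.8 and 2.74 CPM of these genes, within the range of the other control mice. The part of sex in these values was not tested.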

How the data were processed

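The authors deposited counts, whole numbers of reads per Ensembl gene in 21 libraries, without normalization. The submitters' processing notes name CASAVA and mm10. The aligner, the counting program, its strand setting and the handling of duplicate reads are not given in the sources used here. The 92 ERCC spike-in sequences (34 counts in all) were left out.

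Libraries were summed per mouse, as in the study, and tested in R 4.3.3 with edgeR 4.0.16 (filterByExpr, TMM factors, quasi-likelihood F-test, genotype only, Benjamini-Hochberg FDR over all genes tested). Log2 CPM used a prior count of 2. Symbols were found for 46005 of 46517 genes in GENCODE vM21 (GRCm38), and upstream sequences came from RefSeq (GRCm38.p6).

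The members, the pathway list and the marker lists were chosen with earlier results of these data known. A gene of the pathway list is not reported here. Named genes are all members, pathway genes with an unadjusted p lower than 0.05, the gene of each role with the highest CPM, the most abundant gene of marker lists set beside a member, and the 3 nearest genes of the 2 most variable members. Others are named for the count or value beside them, or marked as named after their values were seen.

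The alternatives were DESeq2 1.42.0, limma-voom (limma 3.58.1) on 7 mice and on 21 libraries with and without a replicate block, RLE factors, TMM factors without liver genes, 2 other filters, each mouse left out, k-labelled mice only, a hepatocyte covariate, each technical library alone and no fold threshold. Notch3-/- mouse 3 alone against the control mice and levels per length of the longest coding transcript were added after seeing the data. The pipeline was tested on simulated data.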

Additional observations from a re-analysis of the deposited data

Results flagged for a closer look

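Among 27 groups of control values examined, 1 had a mouse far from the others. *Col1a1*, which encodes a chain of type I collagen, had 167 CPM in control mouse 1, while the other 3 control mice lay at 126, 127 and 127 CPM. The gap to the nearest mouse was 0.987 of the whole range of the group. Chance sets apart a mouse in about 1 in 20 such groups. Without control mouse 1 the log2 fold change of *Col1a1* was 0.73, against 0.62 with all mice.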

How the results depend on the processing

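EdgeR called 0 members and 0 pathway genes in most fits. 1 member (*Fn1*) was called with every gene of at least 1 count (639 of 28790 genes in all). Leaving out a mouse gave 0 to 1 members, with *Fn1* called without Notch3-/- mouse 3 (936 of 15008). Pathway genes called were 5 in DESeq2 (593 of 17571 genes in all), 2 with every gene (639 of 28790) and 2 in technical library 3 (77 of 11833). They were 1 in limma-voom on 21 libraries (54 of 14324), and 0 to 1 with a mouse left out (1 to 936 genes in all). Members with an unadjusted p lower than 0.05 were 2 with all mice (1488 of 14324 genes in all) and 0 with the hepatocyte score (619 of 14324). They were 1 in limma-voom on 7 mice (1104 of 14324), 1 in the k-labelled mice (949 of 14872) and 1 in technical library 3 (1045 of 11833). With a mouse left out they were 1 to 3 (954 to 2448 genes in all). Pathway genes at that p were 10 with all mice (1488 of 14324 genes in all) and 5 in the k-labelled mice (949 of 14872). They were 6 in technical library 1 (744 of 11250), 5 in technical library 3 (1045 of 11833) and 5 to 12 with a mouse left out (954 to 2448 genes in all). The cause was not tested.

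*Notch3* was lower in every fit, and its call was lost with the hepatocyte score (-3.43) and in the k-labelled mice (-3.29). The number of neighbours in level that did not overlap was 1 in technical library 1 (2 with all libraries). The highest count per exon base was 0.155 to 0.218 with a mouse left out.

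Notch3-/- mouse 3 alone against the 4 control mice was chosen after seeing the data, and the lone mouse was assumed to vary like the others. It gave a member median of -0.02 and turned the signs of *Tgfb2* (0.08), *Tgfb3* (0.14), *Postn* (-0.05), *Thbs1* (-0.30), *Fn1* (-0.09), *Smoc1* (-2.78), *Eng* (-0.06), *Smad3* (-0.29) and *Plod1* (-0.06). The hepatocyte score turned *Tgfb2* (0.25), *Tgfb3* (0.14), *Postn* (-0.31), *Thbs1* (-0.52), *Fn1* (-0.67), *Smoc1* (-3.53), *Bmp1* (-0.13), *Eng* (-0.06), *Smad3* (-0.36) and *Plod1* (-0.10). Technical library 1 turned *Eng* (-0.09) and *Smad3* (-0.11), library 2 *Tgfbr2* (0.07), library 3 *Tgfb2* (0.19), *Tgfb3* (0.07), *Nrros* (-0.10) and *Ski* (0.40), and the k-labelled mice *Ski* (0.07). With a mouse left out, *Tgfb3* ran from -0.45 to 0.02, *Ltbp4* from -0.21 to 0.01, *Eng* from -0.02 to 0.17, *Smad3* from -0.15 to 0.16 and *Ski* from -0.30 to 0.15. *Lox* was not tested in single libraries or with at least 10 counts in every mouse.

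With the technical replicate number as a replicate block, limma-voom on 21 libraries called 0 members and 1 pathway gene (*Col3a1*), as without the block. Libraries of different mice with the same number had a median correlation of deviations of -0.0146 (-0.207 to 0.128), against 0.00347 for different numbers, so the number pairs nothing. Depth limits *Tgfb1* and *Lox* most, with counting errors of 43.5% and 25.0% per mouse.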
